A study of Homo sapiens with 12 samples.

Results

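The human gastric cancer cell lines, AGS and MKN45, were compared at baseline, that is without ectopic ESRRG. The comparison rests on 6 of the 12 arrays of the series: 3 samples labelled AGS and 3 samples labelled MKN45, all given the control lentiviral vector and grown in RPMI1640 medium. The remaining 6 arrays hold the same lines with the vector for ESRRG overexpression (ESRRG OE), ESRRG (estrogen-related receptor gamma) being a nuclear receptor with no known natural ligand. Each sample is total RNA on 1 Illumina BeadChip array; which arrays shared a chip is not given in the sources used here. Both control groups therefore carry a viral vector and neither is an untouched line. Nothing in the labels tells separate cultures from repeat preparations of one culture, and the p-values then reflect only how far these 3 preparations scatter, which could be technical. A probe entered the comparison when it was detected above the negative controls (detection p under 0.05) on at least 3 of the 6 arrays, which kept 19304 of 47323 probes. The kept probes represent 10842 of the 20046 genes with a named probe. Levels are log2 intensities after quantile normalization, where 1 unit is a 2-fold difference, and a gene is called when its adjusted p from limma over all kept probes is under 0.05.

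AGS and MKN45 are widely used models of gastric adenocarcinoma. As background, MKN45 is known for amplification of MET, the receptor of hepatocyte growth factor, with very abundant MET product. Lines of the same organ usually differ in lineage markers, in drug-metabolizing enzymes, in genes that answer interferon, and in blocks of neighbouring genes that were gained or lost. Each class is taken up below, in another order, and its lists and windows were chosen with earlier results of these data known.

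The labels were first set against the data. MET was at 9.15, 9.11 and 8.94 in the 3 AGS-labelled samples and at 9.20, 9.31 and 9.22 in the 3 MKN45-labelled samples. The groups did not overlap, but the difference was 0.18 (SE 0.09) and did not pass the test (adjusted p = 0.261, limma). The very abundant MET known for MKN45 is thus not seen in the samples labelled MKN45, on the 1 kept MET probe. Of 9 kept genes listed as neighbours of MET, 0 were called higher and 1 (11.1%) lower, with a median difference of 0.03. Over all genes 5.38% were called higher and 7.07% lower. CDH1, the epithelial cadherin, was 1.47-fold higher in the MKN45-labelled samples, at 8.41 ± 0.21 against 7.86 ± 0.06 (SD, n = 3 each, difference 0.55, SE 0.11, adjusted p = 0.00216), a call that was lost with the spread of each probe taken on its own. The epithelial genes EPCAM (13.17 against 13.10, AGS first) and KRT19 (13.27 against 13.35) and the intestinal regulator CDX2 (11.14 against 10.92) overlapped between the labels. The other fixed intestinal markers detected on 3 or more of the 6 arrays were lower in the MKN45-labelled samples. These were CDH17 (11.42 against 10.81), VIL1 (9.19 against 8.44) and LGALS4 (9.90 against 8.84). GSTM1, a glutathione transferase gene that many people lack, was at 11.85 and 11.87. It is named outside the rule for named genes, and whether its probe separates it from related genes was not tested. The markers fixed for other cell types were mostly undetected: 4 of 5 fibroblast, 3 of 4 endothelial and all 3 leukocyte markers with a probe were detected on no control array, while HBB and COL1A1 were detected on 3 or more of the 6. Control array pairs of different label correlated at r = 0.982 to 0.986 over the kept probes (9 pairs), against 0.991 to 0.995 for control pairs of 1 label (6 pairs). Pairs of a control and an ESRRG OE array of 1 label correlated less, at 0.956 to 0.961 (AGS) and 0.966 to 0.974 (MKN45). The cell line names are therefore used below only as the labels give them, and the reason for these MET levels was not tested.

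Against this, 1350 of 10842 genes (12.5%) were called, 583 higher (5.38%) and 767 lower (7.07%) in the samples labelled MKN45. Only 68 (0.627%) of them differed over 2-fold, 35 higher (0.323%) and 33 lower (0.304%). The median absolute difference over all genes was 0.12 and the 95th percentile 0.47. Groups did not overlap for 3358 genes (31%), and 9400 genes were detected on all 6 arrays. By the same rule 402 genes differed over 2-fold between ESRRG OE and control AGS samples and 204 between ESRRG OE and control MKN45 samples, comparisons that share the control arrays. The balance of directions depends on the scaling. With each array scaled to one median, which moves the median difference of all genes to 0.11, 492 genes were called and 69.1% of them were higher in MKN45, against 43.2% on the deposited values. Leaving out MKN45 control replicate 3 gave 868 called genes, 339 of them higher, and leaving out AGS control replicate 2 gave 381 higher.

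**Figure D1:**
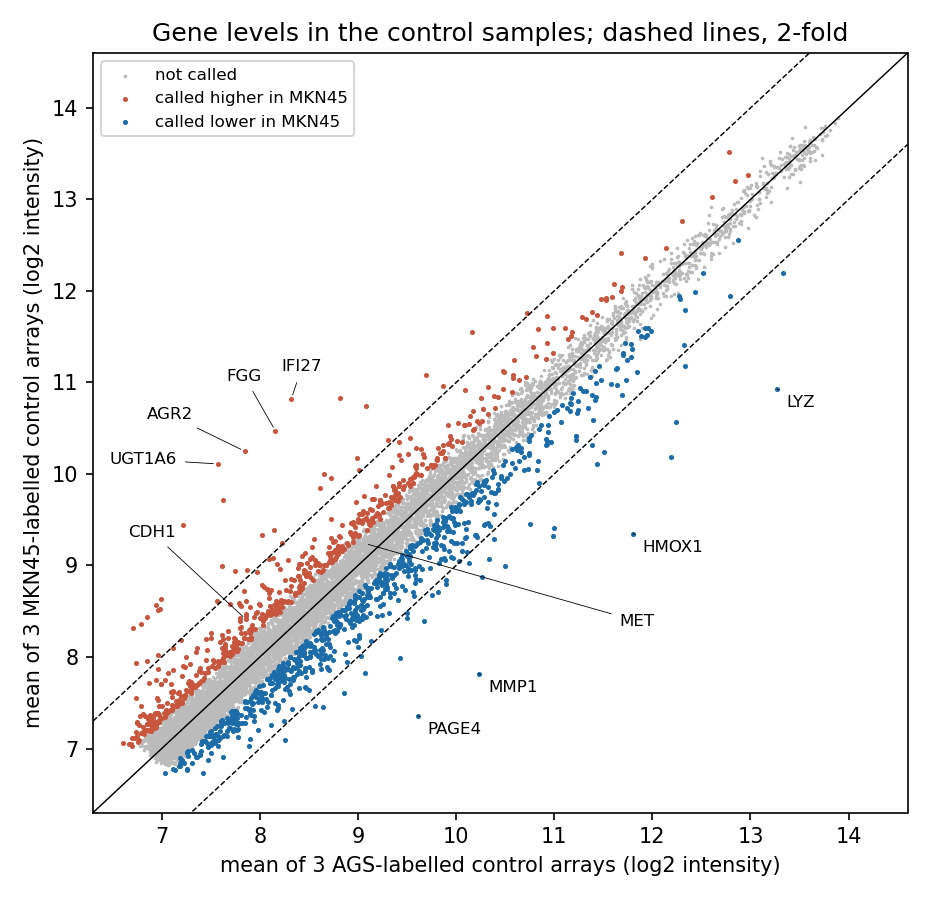
Mean log2 intensity of each gene in the 3 AGS-labelled (x axis) and the 3 MKN45-labelled control samples (y axis), with called genes in colour and dashed lines at 2-fold. Most genes lie on the diagonal, MET among them, and the 68 genes called over 2-fold lie outside the dashed lines.

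The largest excess in the MKN45-labelled samples was that of UGT1A6, which couples glucuronic acid to phenols and drugs. It was at 10.10, 10.19 and 10.06 in these samples and at 7.59, 7.58 and 7.55 in the AGS-labelled samples, a 5.84-fold difference (log2 2.55, SE 0.09, adjusted p = 1.11e-11). Its 3 kept probes were all higher. UGT1A genes share their last exons and differ in the first, so probes may not separate them. Even so UGT1A1, named outside the rule for named genes, went the other way, at 7.12 ± 0.03 in MKN45-labelled against 7.60 ± 0.20 in AGS-labelled samples (adjusted p = 0.00533), a call lost with scaling to one median or with the spread of each probe taken on its own.

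The interferon-induced IFI27 was next in size and is described with its list below. AGR2, a disulfide isomerase needed for mucin folding, was at 10.07, 10.52 and 10.15 in the MKN45-labelled samples and at 8.06, 7.83 and 7.64 in the AGS-labelled samples (5.29-fold, log2 2.40, SE 0.13). A second AGR2 probe was higher by 0.69. REG1A, a lectin secreted by regenerating gastrointestinal mucosa, was at 10.83 ± 0.07 against 8.82 ± 0.11 (4.03-fold). CA2, a carbonic anhydrase of acid-base transport, was at 9.39, 9.65 and 9.27 against 7.32, 7.17 and 7.15 (4.67-fold). CLDN6, a claudin of embryonic epithelia, was at 9.72 ± 0.19 against 7.62 ± 0.16 (4.28-fold). FGG, the gamma chain of fibrinogen made mainly by liver, was at 10.45, 10.46 and 10.51 against 8.18, 8.13 and 8.17 (4.96-fold). In each of these 5 genes every MKN45-labelled sample was more than 1 log2 unit above every AGS-labelled sample. PLAAT4, a phospholipase and acyltransferase, was not detected on any AGS-labelled array and at 8.57 ± 0.18 in the MKN45-labelled samples, at least 2.96-fold higher (a bound against the dimmest detected signals, as each such fold below).

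HMOX1, the heme oxygenase that degrades heme under oxidative stress, led the genes that were lower in the MKN45-labelled samples. It was at 9.32, 9.49 and 9.23 in these samples and at 11.73, 11.90 and 11.76 in the AGS-labelled samples, 5.47-fold lower (log2 -2.45, SE 0.10, adjusted p = 1.92e-11). MMP1, interstitial collagenase, was at 7.77, 7.96 and 7.73 against 10.30, 10.20 and 10.20 (5.33-fold lower). LYZ, the antibacterial lysozyme of gastric glands, was at 10.82, 11.13 and 10.86 against 13.21, 13.27 and 13.32 (5.04-fold lower). All 3 genes were well detected under both labels. PAGE4, a gene of the cancer-testis class, was at 7.36 ± 0.15 against 9.61 ± 0.16 (4.77-fold lower). CTSE, an aspartic protease of gastric surface cells, was at 10.19 ± 0.13 against 12.19 ± 0.13 (3.98-fold lower). GPX2, the gastrointestinal glutathione peroxidase, was at 10.57 ± 0.09 against 12.24 ± 0.02 (3.20-fold lower). The others of the 10 largest were SMIM24, a small membrane protein, FABP5, a fatty acid carrier, CCN2, a matricellular growth factor, and ITGB4, the laminin-binding integrin chain of hemidesmosomes, 2.72- to 3.18-fold lower.

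All 20 of these genes kept their direction and call under each of the 17 alternatives of processing and testing. Folds depend on the background: the deposited values hold no background correction, and with one (neqc) the 20 differences ran from 3.25- to 10.9-fold, against 2.72- to 5.84-fold, and 108 and 121 genes were called over 2-fold higher and lower.

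**Figure D2:**
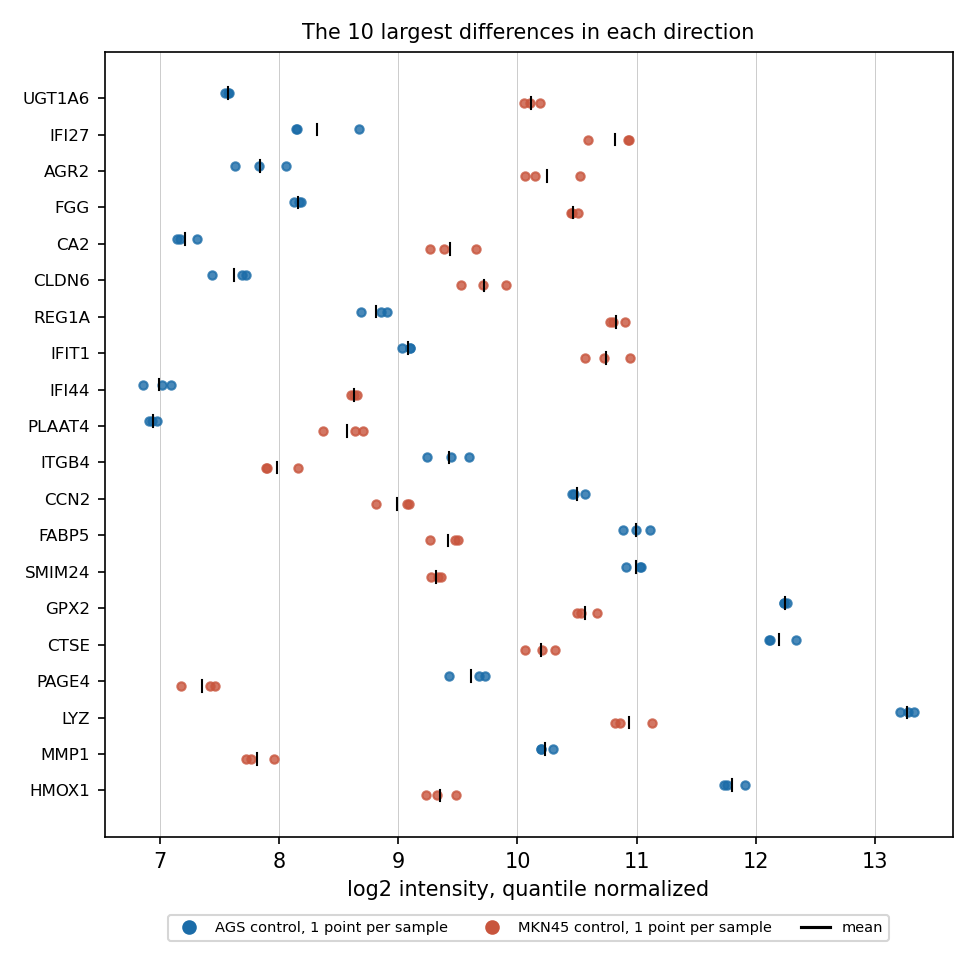
Log2 intensity (x axis) of the 10 genes most above and the 10 most below in the MKN45-labelled samples, 1 point per sample and a line at the mean of 3. The 20 genes were picked among called genes whose AGS and MKN45 points do not overlap, so the gap between the points follows from the pick.

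Of the 30 gene lists examined, the interferon-stimulated genes had the largest share of members called in one direction. Interferons bind cell surface receptors, which activate the factor complex ISGF3, and this binds a promoter element called ISRE. Of 43 genes listed, 34 had a kept probe. Of these, 21 (61.8%) were called higher in the MKN45-labelled samples, against 5.38% of all genes, 1 was called lower and 12 were not called. Their median difference was 0.58, against 0.00 over all genes, and 6 were over 2-fold higher. Of the 41 listed genes with a named probe, 7 had none kept, and the rest of the list had no named probe.

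IFI27, a mitochondrial protein strongly induced by interferon alpha, was at 10.59, 10.93 and 10.93 in the MKN45-labelled samples and at 8.15, 8.67 and 8.15 in the AGS-labelled samples (5.64-fold, log2 2.50, SE 0.13, adjusted p = 6.73e-10). IFIT1, which binds viral RNA without cap methylation, was at 10.94, 10.56 and 10.73 against 9.03, 9.10 and 9.10 (3.17-fold, adjusted p = 4.66e-09). IFI44 was at 8.66, 8.61 and 8.63 against 6.86, 7.02 and 7.09 (3.11-fold, adjusted p = 1.54e-09). The groups lay far apart in all 3 genes. Further members, named after their values were seen, were the IFIT1 relatives IFIT3 (2.92-fold) and IFIT2 (2.38-fold), the oligoadenylate synthetase-like OASL (2.49-fold), the virus tether BST2 (1.98-fold), the exonuclease ISG20 (1.70-fold) and the ubiquitin-like modifier ISG15 (1.67-fold, at 12.42 ± 0.14 against 11.68 ± 0.11). Not every member moved. IFI35 was called lower (7.42 ± 0.10 against 8.01 ± 0.16), and IRF9, a subunit of ISGF3 itself, was at 9.98 against 10.23 (adjusted p = 0.106). OAS1 was at 9.44 against 9.40, IFITM3 at 12.61 against 12.48 and IRF7 at 7.86 against 7.74, and these did not pass either. In antigen presentation, which interferons also induce, 4 of 22 genes (18.2%) were called higher, against 5.38% of all genes, and 0 lower. HLA-B was at 9.69, 9.74 and 9.71 against 9.15, 9.42 and 9.11 (1.40-fold, adjusted p = 0.00317). B2M, the light chain shared by class I molecules, was 1.34-fold higher, and 0 of the 6 kept MHC class II genes were called. With the spread of each probe taken on its own, 15 members of the interferon list were higher, and the calls of IFI35, ISG15, HLA-B and B2M were lost, that of B2M also with neqc.

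**Figure D3:**
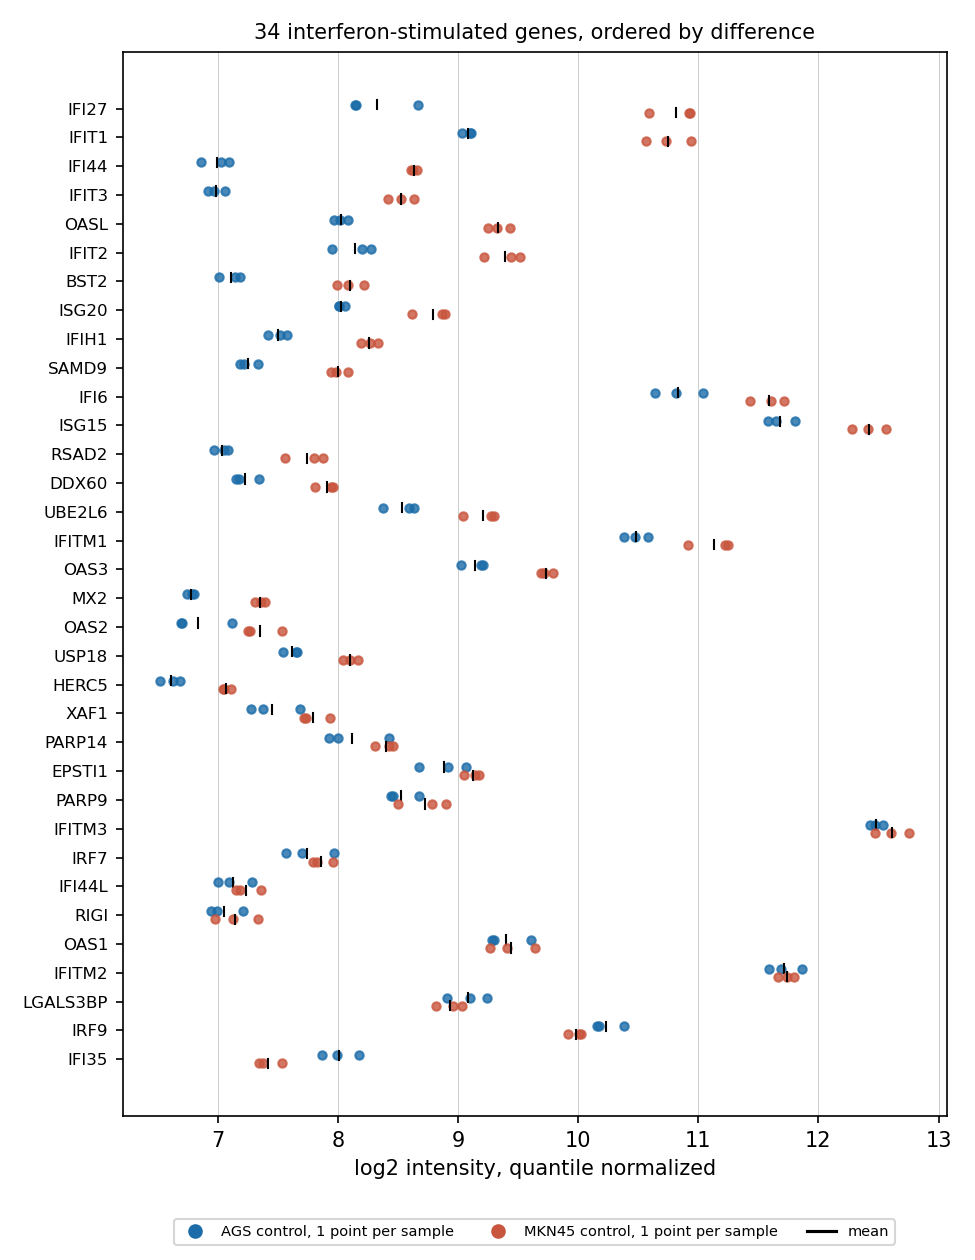
Log2 intensity (x axis) of the 34 kept interferon-stimulated genes, ordered by the difference, 1 point per control sample and a line at the mean of 3. The MKN45-labelled points lie to the right in 21 called genes, from IFI27 down to HERC5, and IFI35 at the foot goes the other way.

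The promoters of the genes with the largest differences are shown because they carry the ISRE core. RefSeq promoter windows (GRCh38.p14, 250 bases before to 50 after the start) were found for 27 of the 34 genes, and were searched on both strands for GAAA, any 2 bases and GAAA again, which on the other strand reads TTTC, 2 bases and TTTC. The motif was in a window of 15 of 16 higher genes with an entry (93.8%) and of 6 of 11 of the remaining genes (54.5%), against 4.38% of 27305 genes with a window. A match is only a run of letters, and says nothing of binding in these samples. The 6 genes of the list with the largest differences and an entry are printed below in gene direction, 5′ to 3′, with the matches in capitals: IFI27 at chr14:94110486-94110785 (plus strand), IFIT1 at chr10:89392373-89392672 (plus strand), IFI44 at chr1:78649539-78649838 (plus strand), IFIT3 at chr10:89327747-89328046 (plus strand), BST2 at chr19:17405581-17405880 (minus strand), ISG20 at chr15:88638766-88639065 (plus strand). Where a gene had several windows, the first that holds the motif is shown.
IFI27: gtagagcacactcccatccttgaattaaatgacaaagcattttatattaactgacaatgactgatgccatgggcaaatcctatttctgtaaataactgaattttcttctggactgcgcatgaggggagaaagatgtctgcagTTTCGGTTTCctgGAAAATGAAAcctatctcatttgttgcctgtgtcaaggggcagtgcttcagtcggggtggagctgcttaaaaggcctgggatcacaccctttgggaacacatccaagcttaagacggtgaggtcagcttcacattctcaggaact
IFIT1: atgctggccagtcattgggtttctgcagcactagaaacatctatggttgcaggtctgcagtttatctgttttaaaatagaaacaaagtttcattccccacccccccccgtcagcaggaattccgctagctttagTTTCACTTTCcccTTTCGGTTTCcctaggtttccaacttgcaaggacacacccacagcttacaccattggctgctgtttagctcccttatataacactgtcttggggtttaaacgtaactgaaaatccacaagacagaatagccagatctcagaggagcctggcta
IFI44: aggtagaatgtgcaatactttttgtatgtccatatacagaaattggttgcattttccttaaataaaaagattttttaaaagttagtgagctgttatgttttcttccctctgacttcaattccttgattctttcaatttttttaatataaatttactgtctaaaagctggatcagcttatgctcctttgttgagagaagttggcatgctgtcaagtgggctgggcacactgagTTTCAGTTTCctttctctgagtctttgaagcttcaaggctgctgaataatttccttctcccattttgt
IFIT3: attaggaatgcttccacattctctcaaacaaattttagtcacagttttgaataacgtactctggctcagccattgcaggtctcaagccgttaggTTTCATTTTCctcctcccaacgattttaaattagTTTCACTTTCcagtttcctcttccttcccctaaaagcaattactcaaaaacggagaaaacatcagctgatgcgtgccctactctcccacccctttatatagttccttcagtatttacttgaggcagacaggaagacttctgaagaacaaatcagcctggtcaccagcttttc
BST2: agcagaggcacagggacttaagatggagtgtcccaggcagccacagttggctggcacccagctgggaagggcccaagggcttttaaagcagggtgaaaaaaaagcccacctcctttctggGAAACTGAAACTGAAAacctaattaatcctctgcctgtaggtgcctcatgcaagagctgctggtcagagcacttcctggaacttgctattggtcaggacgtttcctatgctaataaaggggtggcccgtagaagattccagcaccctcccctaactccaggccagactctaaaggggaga
ISG20: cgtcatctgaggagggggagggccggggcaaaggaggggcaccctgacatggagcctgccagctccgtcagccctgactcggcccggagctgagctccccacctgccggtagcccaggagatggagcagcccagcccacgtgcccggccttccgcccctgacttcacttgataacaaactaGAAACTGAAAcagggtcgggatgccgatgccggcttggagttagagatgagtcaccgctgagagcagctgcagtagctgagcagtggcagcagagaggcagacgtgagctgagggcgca

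IFI27, IFIT1, IFIT3 and BST2 each hold the motif more than once, and in BST2 the matches run into each other. IFI44 and ISG20 hold it once.

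NRF2 is a factor that induces many enzymes against oxidants and xenobiotics under oxidative stress. Of 36 kept genes of a list of such enzymes and other NRF2 targets, 14 (38.9%) were called lower, against 7.07% of all genes, 4 were called higher and 18 were not called, and the median difference was -0.23. Besides HMOX1, the aldo-keto reductases AKR1B10 (7.56, 7.66 and 7.59 against 8.80, 8.80 and 8.97, 2.38-fold lower) and AKR1C2 (6.98, 7.25 and 7.05 against 8.46, 8.13 and 8.18, 2.24-fold lower) fell below every AGS-labelled sample. AKR1C genes are near-identical, so their probes may share signal. The higher members included UGT1A6 and CYP1B1, a cytochrome P450 of steroids and hydrocarbons, which was detected on no AGS-labelled array and at least 1.21-fold higher, a call lost with the spread of each probe taken on its own. With scaling to one median, or with the spread of each probe taken on its own, 7 members were lower, while HMOX1, AKR1B10 and AKR1C2 passed in both.

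Lineage genes differed in both directions. Of 15 kept gastric markers, 4 (26.7%) were called higher and 2 (13.3%) lower, against 5.38% and 7.07% of all genes. SOX2, a stem cell factor also expressed in foregut epithelium, was at 8.99, 9.23 and 8.76 in the MKN45-labelled samples against 7.55, 7.62 and 7.69 (2.59-fold higher, adjusted p = 1.84e-07). With AGR2 it stood opposite to LYZ and CTSE. Of 13 kept intestinal markers, 5 (38.5%) were called lower and 4 (30.8%) higher, against the same shares of all genes. LGALS4, an intestinal galectin, was at 8.79, 8.74 and 8.97 against 9.79, 9.93 and 9.98 (2.09-fold lower, adjusted p = 8.89e-07). KRT20, a keratin of differentiated intestinal cells, was detected on no MKN45-labelled array and at least 1.41-fold lower. The calls of KRT20 and, further below, MT2A were lost with the spread of each probe taken on its own. CEACAM5, the carcinoembryonic antigen, was 1.74-fold higher, at 8.59 ± 0.11 against 7.79 ± 0.10. Among genes of liver plasma proteins the cell adhesion protein VTN (2.52-fold lower) and the lipoprotein APOA2 (2.45-fold lower) went against FGG, so the 11 kept members showed no common direction (1 higher, 9.09%, and 3 lower, 27.3%). GATA5, a zinc finger factor of endoderm, was 1.56-fold lower. MT2A, a metallothionein that binds zinc and copper, was at 10.37 ± 0.15 against 9.31 ± 0.16 (2.08-fold higher), and S100P, a calcium-binding protein, at 11.08 ± 0.19 against 9.69 ± 0.10 (2.61-fold higher).

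In the Wnt pathway, in which stabilized beta-catenin drives TCF and LEF factors, 7 of 33 kept components (21.2%) were called lower, against 7.07% of all genes, and 0 higher, with a median of 0.01. AXIN2, a scaffold of the destruction complex and itself a beta-catenin target, was at 11.34, 11.06 and 11.13 in the MKN45-labelled samples against 12.47, 12.25 and 12.28 (2.23-fold lower, adjusted p = 5.60e-07). Of 21 kept direct Wnt targets, AXIN2 among them, 5 (23.8%) were called lower and 2 (9.52%) higher, with a median of -0.03. The higher ones were TNFRSF19 (1.64-fold) and CD44 (1.30-fold). Both calls were lost with the spread of each probe taken on its own. That of CD44 was also lost with neqc, with averaged probes, and without AGS control replicate 2 or MKN45 control replicate 3. TCF7L2 was at 8.82 on each MKN45-labelled array against 9.24 ± 0.16 (adjusted p = 0.00900, a call lost under 4 of 17 alternatives, leaving out AGS control replicate 3 among them), while CTNNB1 overlapped at 9.82 ± 0.24 against 9.74 ± 0.24. Of 24 kept receptor tyrosine kinases 6 (25%) were called lower, against 7.07% of all genes, and 1 higher, with a median of -0.06. FGFR4, a receptor of fibroblast growth factors, was at 7.97, 7.80 and 7.90 against 8.80, 8.65 and 8.60 (1.74-fold lower). With scaling to one median, 1 Wnt component (AXIN2) and 1 receptor (FGFR4) were called lower, so the counts of small differences depend on it. CCND1, cyclin D1, was at 12.60 against 12.64. Counts in other lists are read against 5.38% of all genes higher and 7.07% lower. Of 32 mitosis genes 3 (9.38%) were called higher and 0 lower, and 25 had a difference above 0, with a median of 0.12. Of 38 DNA replication genes 2 (5.26%) were called in each direction, shares near those of all genes, with a median of 0.03. Of 53 respiratory chain subunits 1 (1.89%) was called in each direction. Among 25 p53 targets 2 (8%) were higher and 4 (16%) lower, with TP53I3, a quinone oxidoreductase, 1.92-fold lower.

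ESRRG itself was near background. Of its 3 probes 1 was kept, at 7.27 ± 0.10 in the AGS-labelled and 6.91 ± 0.09 in the MKN45-labelled samples, without overlap, and it was detected on 3 AGS and 1 MKN45 control arrays. The difference was -0.36 (SE 0.09, adjusted p = 0.0212), a call lost under 6 of 16 alternatives, among them scaling to one median and leaving out AGS control replicate 2 or 3 or MKN45 control replicate 1. ESRRA overlapped between the labels, and the single ESRRB probe was detected on no control array. On the ESRRG OE arrays the ESRRG probe was at a mean of 6.90 (AGS) and 6.94 (MKN45), no higher than on the control arrays, so this probe does not show the ectopic gene.

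Differences were also shared by neighbours on a chromosome. Gains or losses of chromosome segments are common in cancer lines and shift many genes of a segment at once, but copy number was not measured here. Over 10505 windows of 15 neighbouring kept genes, the median difference ran from -0.73 to 0.45, and 63 windows were beyond 0.5 in size, while medians of whole chromosomes stayed between -0.11 (chromosome 20) and 0.04. Windows overlap, so they are a description with no test. The windows named below are the 4 lowest and the 4 highest medians that do not overlap. High counts of called genes in them therefore follow from the pick. Over all genes 5.38% were called higher and 7.07% lower. The lowest window, on chromosome 17 from GRIN2C to MRPS7, had 13 of 15 genes called lower. It held JPT1, a microtubule-associated protein, at 10.21, 10.27 and 10.25 in the MKN45-labelled samples against 11.56, 11.49 and 11.47 (2.40-fold lower). The adjoining window from MIF4GD to MRPL38 had a median of -0.60 with 12 of 15 lower. It contained ITGB4 and UNC13D, a factor of granule exocytosis (2.28-fold lower). A window on the same chromosome from LOC105274304 to BIRC5 was shifted the other way, by 0.29, with 5 genes higher and 1 lower.

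On chromosome 2, 12 of 15 genes from DBI to POLR2D were lower (median -0.69), with WDR33, a subunit of the polyadenylation machinery, at 9.07, 9.17 and 8.97 against 10.41, 10.21 and 10.40 (2.40-fold lower). Elsewhere on chromosome 2, 11 of 15 genes from AP1S3 to PSMD1 were higher (median 0.45), led by SP110, a nuclear body protein (1.98-fold). SP110 and its neighbours SP100, SP140 and SP140L are paralogues, and SP110 and SP100 are known to answer interferon. On chromosome 9, 9 of 15 genes from PIERCE1 to AGPAT2 were lower (median -0.61), with INPP5E, a phosphatase of cilia, 2.38-fold lower. On chromosome 7 the window from LRRC72 to RAPGEF5 (median 0.44, 9 higher) held AGR2 and, close to it, the tetraspanin TSPAN13 (2.06-fold higher), and the window from ZNF815P to CCZ1B (median 0.42, 11 higher) held CYTH3, an exchange factor for ARF proteins (1.94-fold higher). CCZ1 and CCZ1B, and PMS2 and PMS2CL, are near-identical pairs within that window.

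**Figure D4:**
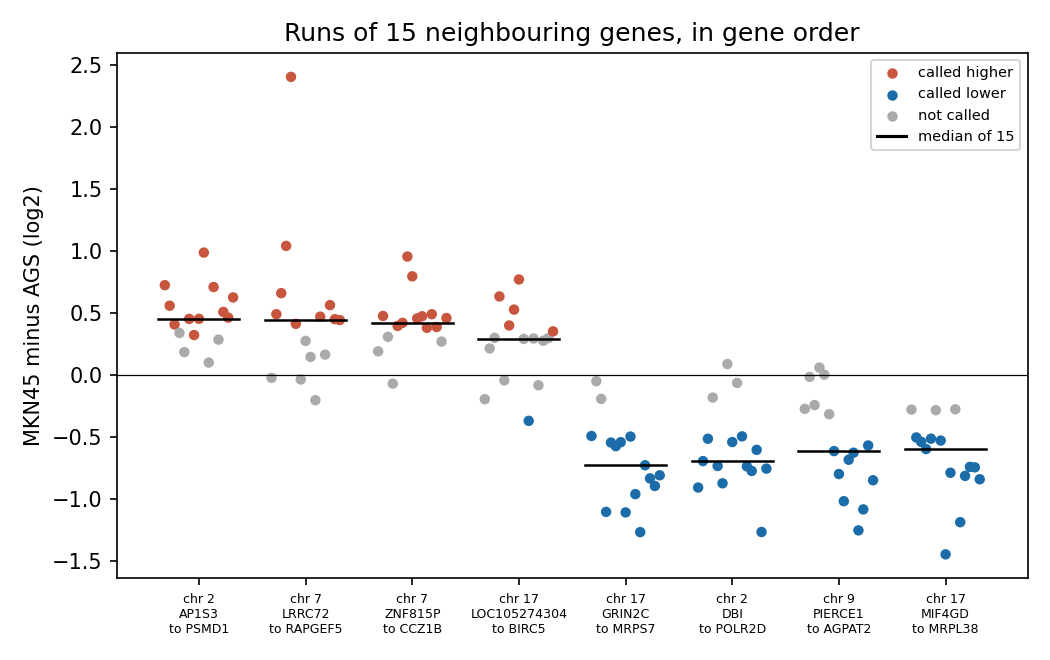
Difference between MKN45- and AGS-labelled control samples (y axis, log2) for the genes of the 8 windows, in gene order within each window, coloured by call, with a line at the window's median. In the 4 windows on the right nearly all genes lie below 0, and in the 4 on the left most lie above.

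The same line difference can be read on the ESRRG OE arrays, which are other samples of the 2 labels. Of the 68 genes over 2-fold, 61 (89.7%) had the same sign there and 59 were also called, against 64.2% of all genes with the same sign. The 8 windows kept their sign, with medians of -0.62 to -0.43 for the lower ones and 0.18 to 0.61 for the higher ones. The size of the difference was less stable. The change of the line difference with the vector was tested on all 12 arrays (interaction), and 1104 of 10842 genes (10.2%) were called. Of the 68 genes 40 were called. The 68 were picked for large control differences, which the interaction subtracts, so the pick itself favours a call. With scaling to one median the interaction called 289 genes. MMP1, LYZ, CTSE, GPX2, FABP5 and ITGB4 were not called in the interaction, and their differences with ESRRG OE were -2.07, -2.51, -1.98, -1.83, -1.56 and -1.47. Of the interferon-stimulated genes, 18 of 34 were called in the interaction. IFI27 was at a mean of 11.84 (AGS) and 11.69 (MKN45) on the ESRRG OE arrays, so that the difference of 2.50 in the controls was -0.15 there. IFIT1 kept 0.50 of 1.67 and IFI44 0.85 of 1.64. UGT1A6 moved the other way, from 2.55 to 3.13.

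**Figure D5:**
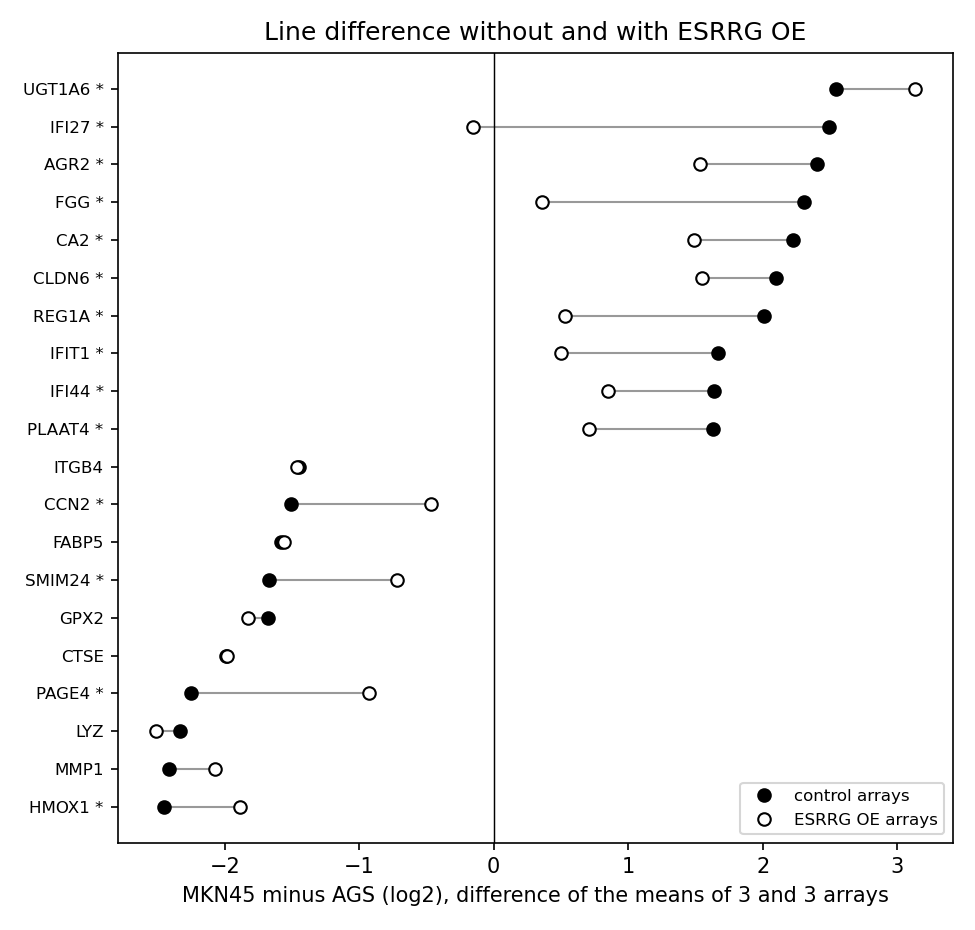
Difference between MKN45- and AGS-labelled samples (x axis, log2) for the 20 genes with the largest differences, on the control arrays (filled) and the ESRRG OE arrays (open), with an asterisk where the interaction was called. Only IFI27 crosses 0, while LYZ, CTSE, GPX2, FABP5 and ITGB4 barely move.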

How the data were processed

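RNA of 12 samples was measured on 12 BeadChip arrays, and the 6 control arrays were compared. The authors deposited each probe's intensity on a linear scale without background correction, a detection p-value per probe, and log2 values from quantile normalization in limma of all 12 arrays; repeating it gave the deposited log2 values within 5e-04. The submitters' processing notes name GenomeStudio. Of 47323 probes, 30113 had 1 symbol, 8 several and 17202 none; current names came from RefSeq (GRCh38.p14). A gene was represented by its kept probe with the highest mean, and 2940 genes had several kept probes. Groups were compared with lmFit and eBayes (limma 3.58.1, R 4.3.3), with Benjamini-Hochberg adjustment over 19304 probes. On simulated data (19304 probes) 97 of 100 changes of 1 log2 unit and 46 of 100 of 0.5 were recovered, with 6 false calls. The simulation held no other changes and drew independent noise for each value. In the data 2027 probes (10.5%) were called and arrays may share effects, so these rates need not hold there. Where a group had no detected array, the fold is a bound: the bright mean against, per array, the higher of the lowest detected signal and the probe's own. Array number and signal over background limit the precision.

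The 30 gene lists, the windows and the rule for named genes were chosen with earlier results of these data known. The rule took the 10 largest differences in each direction without overlap, the 3 largest called per list and direction, a set of genes the study discusses, 3 genes per window and the 5 largest interactions in each direction; not all are printed, and exceptions are marked. XIST and genes of chromosome Y stayed in the tests but are not named or plotted. Alternatives were neqc (offset 16), median scaling, quantile normalization of the 6 arrays, quantile normalization repeated, no filter or p under 0.01, a fit of all 12 arrays, the replicate number as a block, each probe's own spread, an unadjusted p under 0.001, averaged probes, and each array left out.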

Additional observations from a re-analysis of the deposited data

Results flagged for a closer look

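The line difference was called as changed between the control and the ESRRG OE arrays for 1104 of 10842 genes (10.2%). The test was the interaction of line and vector in a fit of all 12 arrays (limma, adjusted over all kept probes). The 21 called genes given here were picked for large control differences or for large interactions. Values below are the MKN45-labelled minus AGS-labelled difference (log2) with ESRRG OE, less that in the controls. A pick by large control differences, which the interaction subtracts, favours differences that shrink. The remaining genes were picked for the interaction itself, and the p-values do not allow for either pick.

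Among the genes most above in the MKN45-labelled controls the excess shrank for IFI27 by -2.65 (from 2.50 to -0.15, adjusted p = 3.04e-08), FGG by -1.95 (to 0.36, adjusted p = 2.13e-09), REG1A by -1.48 (to 0.53, adjusted p = 2.69e-07), IFIT1 by -1.17 (to 0.50, adjusted p = 1.09e-05) and PLAAT4 by -0.92 (to 0.71, adjusted p = 0.000188). It shrank less for AGR2 (-0.87, adjusted p = 0.00341), IFI44 (-0.79, adjusted p = 0.000257), CA2 (-0.74, adjusted p = 0.00239) and CLDN6 (-0.54, adjusted p = 0.0285). UGT1A6 is the exception, with a larger difference (0.58, adjusted p = 0.00169). FGG was at 13.25 (AGS) and 13.61 (MKN45) on the ESRRG OE arrays, near the top of the scale. Differences may be compressed there, which was not tested.

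Among the genes most below, the deficit shrank for PAGE4 (1.33, from -2.25 to -0.93, adjusted p = 2.61e-05), the growth factor CCN2 (1.04, from -1.51 to -0.46, adjusted p = 0.000303), SMIM24 (0.95, adjusted p = 0.000134) and HMOX1 (0.57, adjusted p = 0.0151).

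The largest interactions elsewhere were those of the myosin heavy chain MYH4 (-1.83, from 1.19 to -0.64, adjusted p = 9.47e-07), S100P (-1.78, from 1.38 to -0.40, adjusted p = 1.30e-06) and FILIP1L (-1.69, from 0.40 to -1.29, adjusted p = 2.69e-07), which changed sign. HSD3B1, an enzyme of steroid hormone synthesis, rose from 0.13 to 1.75 (1.62, adjusted p = 1.30e-06) and FGD3 from 0.18 to 1.35 (1.17, adjusted p = 3.02e-05). The cystatins CST4 (1.24, from -0.48 to 0.77, adjusted p = 3.56e-06) and CST1 (1.14, from -1.14 to 0.01, adjusted p = 1.30e-06) went the same way. CST1 was at 13.64 (AGS) and 13.65 (MKN45) on the ESRRG OE arrays, likewise near the top of the scale.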

How the results depend on the processing

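The number of called genes (1350, of which 583 higher and 767 lower in the MKN45-labelled samples) moved most. Background correction (neqc) gave 848 (366 and 482), with 108 and 121 over 2-fold. Scaling to one median gave 492 (340 and 152), with 20 over 2-fold lower, 7 lower NRF2 and xenobiotic genes and 289 interactions. The spread of each probe on its own gave 281 (117 and 164), with 7 lower NRF2 and xenobiotic genes. An unadjusted p under 0.001 gave 845 (339 and 506). Leaving out 1 array in turn gave 868 to 1190 called genes, 339 to 540 higher and 529 to 650 lower. Of genes over 2-fold, 34 to 37 were then higher and 31 to 36 lower, of interferon-stimulated genes 20 to 23 were higher, and of NRF2 and xenobiotic genes 11 to 14 were lower. The cause of these moves was not tested.

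The replicate numbers were not taken to pair the samples: deviations from the group mean correlated at 0.25, 0.15 and -0.03 for numbers 1, 2 and 3, and at -0.21 to 0.06 for unlike numbers. Numbers 1 and 2, but not 3, thus correlated best with their own number, and whether they share a batch was not tested. With the replicate number as a block, 1592 genes were called (701 higher, 891 lower), with 35 and 33 over 2-fold as without it, and 22 interferon-stimulated genes were higher. The 20 genes with the largest differences kept their call under all 17 alternatives (highest adjusted p = 0.0358, with each probe's own spread). No named gene that was called changed direction. Probes near background understate differences.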
